A study of Mus musculus with 15 samples.

Results

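Messenger RNA levels of 10 genes that govern entry into the cell cycle or the permanent arrest called senescence were compared among mouse mammary tumour spheres given 1 of 4 signalling inhibitors or vehicle. The genes were Ptpn11, Skp2, Cks1b, Aurka, Cdkn1a, Cdkn1b, Cdkn1c, Cdkn2a, Cdkn2b and Cdkn2c, out of 18193 genes named on the array. They were chosen by name, and every probe set annotated to exactly 1 of them was taken, which gave 21 of 45101 probe sets. A probe set is a group of short probes for 1 transcript, and 19 of the 21 were bright enough to test.

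The study asked how Shp2, the product of Ptpn11, holds back senescence in mammary cancer driven by the polyoma middle T oncogene. All 15 cultures were mammospheres, floating spheres of primary tumour cells from FVB/N mice that carry MMTV-PyMT, the oncogene behind a mammary tumour virus promoter, so the vehicle cultures carry it too. After 10 days of growth the spheres received DAPT, which blocks the γ-secretase cleavage of Notch receptors, U0126, an inhibitor of the ERK-activating kinase MEK1, TAE226, an inhibitor of focal adhesion kinase (FAK), PP2, an inhibitor of Src family kinases, or vehicle, for another 2 days. Each group had 3 arrays. The labels call the replicates of a group biological without saying whether they were separate mice or separate cultures, and the p-values cover the spread among these samples. Doses and mouse ages are not stated in the sources used here. No culture lacked Shp2, and the comparison here is across inhibitors of kinases and of Notch.

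Shp2 is a tyrosine phosphatase that docks on activated receptors and adaptor proteins and helps switch on Ras and ERK. Skp2 is the part of an SCF ubiquitin ligase that recognises the CDK inhibitor p27, and Cks1, encoded by Cks1b, is the small cofactor it needs to do so. Aurora A, encoded by Aurka, is a kinase of the centrosome and the mitotic spindle. Of the CDK inhibitors, Cdkn1a, Cdkn1b and Cdkn1c encode p21, p27 and p57, which bind cyclin-CDK complexes broadly. Cdkn2b and Cdkn2c encode p15 and p18, which bind CDK4 and CDK6, and Cdkn2a encodes both p16 and the p53 activator ARF.

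The start regions of 5 of these genes are printed because their transcripts gave the largest shifts under PP2. They are RefSeq windows on GRCm38.p6, 250 bases before to 50 bases after a transcript start, each written along the gene's own strand. Skp2 and Cdkn1a each had 2 windows, at different starts. For both genes only the window that holds the motif marked below is printed, so it was chosen by its motif. In the Aurka, Cks1b and Skp2 windows, capitals mark TTTGAA, the core of the cell cycle genes homology region (CHR), on either strand. In the Cdkn1a window, capitals mark CATGNNNNNNCATG, the core of a pair of p53 half-sites. In the Cdkn1b window they mark CCAAT on either strand.
Aurka, chr2:172370521-172370820, minus strand: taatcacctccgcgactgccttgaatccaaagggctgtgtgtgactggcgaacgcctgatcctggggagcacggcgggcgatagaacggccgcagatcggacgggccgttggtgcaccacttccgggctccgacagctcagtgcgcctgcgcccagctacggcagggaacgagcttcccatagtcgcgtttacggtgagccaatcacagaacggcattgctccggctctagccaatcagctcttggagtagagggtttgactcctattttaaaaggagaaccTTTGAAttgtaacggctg
Cks1b, chr3:89418242-89418541, minus strand: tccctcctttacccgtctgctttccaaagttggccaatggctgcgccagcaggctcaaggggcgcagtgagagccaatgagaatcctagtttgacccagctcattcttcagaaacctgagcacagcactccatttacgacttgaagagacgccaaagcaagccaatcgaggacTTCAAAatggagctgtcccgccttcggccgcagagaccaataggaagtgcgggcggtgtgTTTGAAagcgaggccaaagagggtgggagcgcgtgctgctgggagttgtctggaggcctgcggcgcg
Skp2, chr15:9155376-9155675, minus strand: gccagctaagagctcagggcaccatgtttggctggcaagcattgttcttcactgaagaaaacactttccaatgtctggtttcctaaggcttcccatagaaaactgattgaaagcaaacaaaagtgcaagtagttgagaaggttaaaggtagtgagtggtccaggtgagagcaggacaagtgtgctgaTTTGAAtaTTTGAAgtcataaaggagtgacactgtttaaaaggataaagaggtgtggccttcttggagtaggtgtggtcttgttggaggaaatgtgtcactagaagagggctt
Cdkn1a, chr17:29090729-29091028, plus strand: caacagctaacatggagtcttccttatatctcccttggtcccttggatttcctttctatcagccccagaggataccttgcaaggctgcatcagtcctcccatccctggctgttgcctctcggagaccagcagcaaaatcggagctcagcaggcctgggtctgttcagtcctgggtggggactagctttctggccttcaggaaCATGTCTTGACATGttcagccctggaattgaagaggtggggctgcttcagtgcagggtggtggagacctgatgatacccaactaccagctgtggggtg
Cdkn1b, chr6:134920151-134920450, plus strand: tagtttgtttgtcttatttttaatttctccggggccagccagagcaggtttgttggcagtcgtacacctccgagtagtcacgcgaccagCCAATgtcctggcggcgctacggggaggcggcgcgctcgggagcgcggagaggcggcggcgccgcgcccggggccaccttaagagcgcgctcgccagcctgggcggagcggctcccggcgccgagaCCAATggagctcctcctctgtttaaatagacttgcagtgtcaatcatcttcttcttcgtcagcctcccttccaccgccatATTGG

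Such windows were held for 9 of the 10 genes, 13 windows in all, and Cdkn1c had none. TTTGAA occurred in 4 of the 13 windows, against 17.9% of 32851 windows of all genes. With the start counted as +1 and each match placed by its first base, TTTGAA lay at +33 in Aurka, at -77 and -17 in Cks1b and at -63 and -55 in Skp2. The other Skp2 window, chr15:9140405-9140704, did not hold it, and Cdkn2b held it at -161. CCAAT occurred in 6 of the 13 windows and in 37.4% of all, with matches at -161, -35 and +46 in Cdkn1b. It also lay at -217, -177, -89 and -41 in Cks1b, at -51 and -19 in Aurka and at -183 in the Skp2 window printed. Those matches are left in lower case above. Cdkn2a held it at +21 and Cdkn2c at +8. The p53 pair occurred in 1 of the 13, at -48 in the Cdkn1a window printed, and in 0.712% of all. The other Cdkn1a window, chr17:29093519-29093818, which is not printed, did not hold it, so the position given is counted from 1 of 2 starts. The GC box GGGCGG occurred in 9 of the 13 and in 35.7% of all, and the E2F core TTCCCGC in 2 of the 13 and in 4.6% of all. The FOXO core TGTTTAC was in 0 of the 13 and in 3.65% of all. Both strands were searched for every motif, no motif searched was part of another, and a match in this window is a description of its letters. Whether any of these motifs bears on the transcript levels was not tested.

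Values are MAS5 signals, the array's brightness per probe set on a linear scale that the authors set to a common mean on each array. Fold changes are differences of mean log2 signal, inhibitor minus vehicle, and their adjusted p-values come from limma across all 24641 probe sets tested, with 0.05 as the threshold. Array medians ran from 66 to 91, and a probe set below its array's own median is called dim. The cells were epithelial by their markers: all 6 epithelial markers lay above the median on every array. Of the 6 fibroblast markers 4 were dim on all 15 arrays, as were 3 of 6 leukocyte, 3 of 4 endothelial and 3 of 3 measured adipocyte markers, and none was listed at 0. Epithelial marker signals summed to between 60000 and 61700 under DAPT, 68500 and 77100 under U0126, 66100 and 74200 under TAE226, 63400 and 65900 under PP2, and 66100 and 68500 in vehicle. Fibroblast markers summed to between 172 and 218, 157 and 317, 250 and 313, 185 and 307, and 164 and 246 in the same order.

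Under PP2, Skp2, Cks1b, Aurka and Cdkn1a fell while Cdkn1b rose. Under DAPT these 4 genes also fell, Cdkn1b fell on the brighter of its 2 probe sets, and Cdkn2a rose. Under U0126, Aurka, Cdkn1a, Cdkn2a and Cdkn2b rose, while Cks1b, Cdkn1b and Cdkn2c fell on their brightest probe set. Under TAE226, Cdkn1a rose and Skp2, Cks1b, Aurka, Cdkn2c and Cdkn1b fell on theirs, while the dimmer Cdkn1b probe set rose. Some calls ended when each array was centred on its median. Among them were Cdkn1b under PP2 on its brighter probe set, Cdkn1a under TAE226 and Aurka under U0126. Others, such as the Aurka fall under TAE226, ended when single arrays were left out, as given beside each gene. In bulk cultures, fewer cells of a type and less RNA per cell cannot be told apart.

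By limma's F-test over the 5 groups, 17 of the 19 probe sets tested varied with treatment, beside 66.3% of all probe sets tested. Under DAPT 9 of the 19 passed against vehicle, 1 higher and 8 lower, beside 29.5% of all (16.5% higher and 13% lower). Under U0126 9 passed, 6 higher and 3 lower, beside 33.3% of all (16.8% and 16.4%). Under TAE226 13 passed, 4 higher and 9 lower, beside 28.7% of all (17.1% and 11.5%). Under PP2 12 passed, 2 higher and 10 lower, beside 49% of all (27.1% and 21.9%). The arrays of inhibitor and vehicle did not overlap for 13, 9, 13 and 12 of the 19 under DAPT, U0126, TAE226 and PP2, beside 43.3%, 42.9%, 42.3% and 56.3% of all. Between inhibitors, which are used below only to order the levels, the share of all probe sets called was 37.2% for DAPT against U0126, 16.9% for DAPT against TAE226, 33.4% for DAPT against PP2, 31.7% for U0126 against TAE226, 50% for U0126 against PP2 and 35.4% for TAE226 against PP2. The 4 comparisons share the vehicle arrays.

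The median log2 fold change of the 19 probe sets was −0.28 under DAPT, 0.06 under U0126, 0.06 under TAE226 and −0.47 under PP2. Over all probe sets tested the medians were 0.06, 0.02, 0.08 and 0.08 in the same order. Centring each array on its median lowered every fold change by 0.13 under DAPT, 0.08 under U0126, 0.25 under TAE226 and 0.22 under PP2. With that scaling the split became 0 higher and 12 lower under DAPT, 3 and 3 under U0126, 0 and 9 under TAE226, and 1 and 12 under PP2. Quantile normalization gave 1 and 9, 6 and 3, 5 and 9, and 2 and 10 in the same order. Rises under U0126 and TAE226 are therefore relative to the authors' scale, and those that centring ends are named beside each gene.

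**Figure D1:**
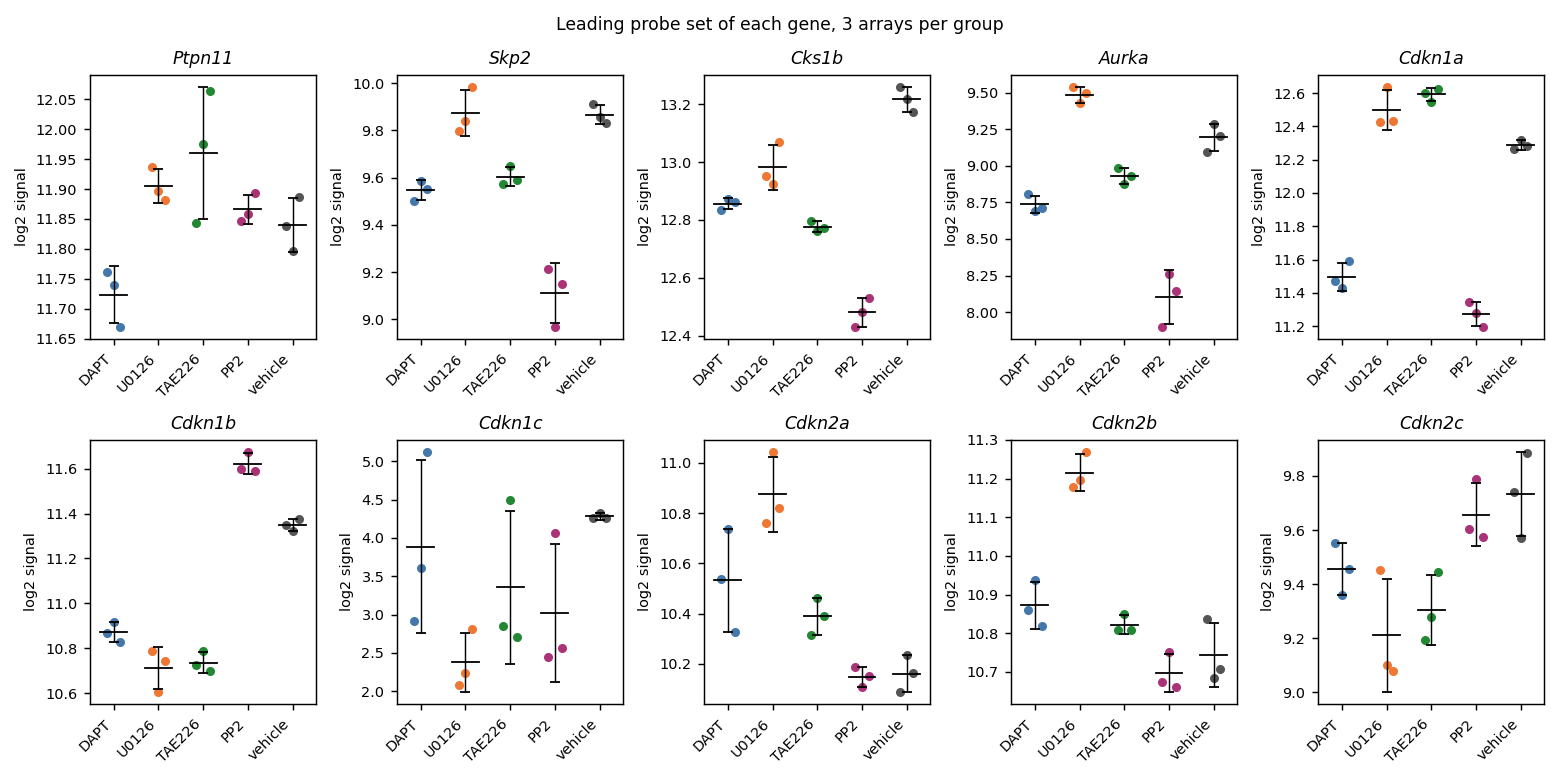
Log2 MAS5 signal of each gene's brightest probe set in every array, in 5 treatment groups with vehicle at the right; points are arrays, and bars are the group mean ± SD (n = 3). Aurka was highest under U0126 (mean 9.49) and lowest under PP2 (mean 8.10), Cdkn1b was highest under PP2 (mean 11.62), and the Cdkn1c panel shows a probe set that was dim throughout.

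Ptpn11, the gene for Shp2, did not pass against vehicle under any inhibitor on its brightest probe set. This probe set, 1451225_at, read 3471, 3417 and 3257 under DAPT, 3919, 3811 and 3773 under U0126, and 3674, 4024 and 4278 under TAE226. It read 3682, 3716 and 3803 under PP2, against 3660, 3558 and 3787 in vehicle. Vehicle arrays overlapped those of U0126, TAE226 and PP2, while the 3 DAPT arrays lay below all 3 vehicle arrays. The log2 fold changes were −0.12 under DAPT, 0.06 under U0126, 0.12 under TAE226 and 0.03 under PP2 (SE 0.06 each), and none passed. The TAE226 value did pass with quantile normalization (0.16, adjusted p = 0.0429) and without TAE226 replicate 1 (0.18, adjusted p = 0.0249). Their unadjusted 95% intervals were −0.24 to 0.00, −0.05 to 0.18, 0.00 to 0.24 and −0.09 to 0.14. Across the 5 groups it varied (F-test adjusted p = 0.0149), with TAE226 highest and DAPT lowest (log2 difference of DAPT minus TAE226 −0.24, adjusted p = 0.00686), but no neighbouring pair in the order differed.

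A second probe set for Ptpn11, 1427699_a_at, averaged 1204 ± 123 under DAPT, 1596 ± 43.1 under U0126, 1568 ± 162 under TAE226, 1355 ± 23.4 under PP2 and 1317 ± 106 in vehicle (SD, n = 3 each). It was higher under U0126 (log2 fold change 0.28, adjusted p = 0.016) and TAE226 (0.25, adjusted p = 0.034). Neither call held when every array was centred on its median (0.20, adjusted p = 0.123, and −0.01, adjusted p = 0.976). Without vehicle replicate 2 the adjusted p-values were 0.0866 and 0.156, without U0126 replicate 1 the first was 0.0538, and without TAE226 replicate 3 the second was 0.174. The third, 1421196_at, was near the array median, between 59.0 and 143, and passed in no comparison.

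Skp2, the p27-binding subunit, was lowest under PP2. On its brightest probe set, 1418969_at, signals were 725, 769 and 751 under DAPT, 890, 916 and 1014 under U0126, and 762, 803 and 770 under TAE226. They were 594, 501 and 568 under PP2, against 963, 928 and 911 in vehicle. The DAPT, TAE226 and PP2 arrays all lay below the vehicle arrays, and the U0126 arrays overlapped them. Skp2 fell by 0.76 on the log2 scale under PP2 (1.69-fold, SE 0.07, adjusted p = 3.4e-07), by 0.32 under DAPT (adjusted p = 0.00348) and by 0.26 under TAE226 (adjusted p = 0.0127). Under U0126 the change was 0.01 (95% interval −0.15 to 0.16, adjusted p = 0.959). From high to low, U0126 and vehicle did not differ, vehicle exceeded TAE226, TAE226 and DAPT did not differ, and DAPT exceeded PP2 (log2 difference 0.44, adjusted p = 0.000219).

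Skp2 had 5 other probe sets, and 4 of these also fell under PP2, beside 21.9% of all probe sets lower. The falls were 0.78 for 1436000_a_at, 0.93 for 1437033_a_at, 0.47 for 1449293_a_at and 0.78 for 1460247_a_at on the log2 scale, so the 5 that passed spanned 0.47 to 0.93. The fall of 1449293_a_at lost its call without vehicle replicate 2 (adjusted p = 0.129), PP2 replicate 2 (0.0698) or PP2 replicate 3 (0.0532). The sixth, 1425072_at, read between 127 and 185 on all arrays and did not pass among the 5 groups (F-test adjusted p = 0.803).

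Under TAE226, 4 of the 6 Skp2 probe sets fell, and under DAPT 2 of the 6, beside 11.5% and 13% of all probe sets lower. Of these TAE226 falls, 1436000_a_at (log2 fold change −0.29, adjusted p = 0.0317) and 1460247_a_at (−0.40, adjusted p = 0.0269) were larger with median centring (−0.55, adjusted p = 0.00488, and −0.66, adjusted p = 0.00203). The first lost its call without any 1 of vehicle replicates 1 and 2 and the 3 TAE226 replicates (adjusted p = 0.0638 to 0.136). The second lost it without vehicle replicate 1, vehicle replicate 2 or TAE226 replicate 2 (adjusted p = 0.073, 0.0684 and 0.138), with the value at −0.23 in the last case. None of the 6 passed under U0126, where 1449293_a_at had the largest value (0.34, adjusted p = 0.12).

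Cks1b, the cofactor of Skp2 in p27 recognition, was below vehicle under all 4 inhibitors on its brighter probe set. On 1416698_a_at the signals were 7308, 7494 and 7451 under DAPT, 7923, 7771 and 8600 under U0126, and 7120, 6945 and 6995 under TAE226. They were 5524, 5717 and 5916 under PP2, against 9812, 9532 and 9227 in vehicle. No inhibitor-treated array reached the lowest vehicle array, and the PP2 arrays lay below all others. The log2 fold changes were −0.36 under DAPT (adjusted p = 4.32e-05), −0.23 under U0126 (0.00146), −0.44 under TAE226 (6.47e-06) and −0.74 under PP2 (4.49e-09), with an SE of 0.05 each. Below vehicle, U0126 and DAPT did not differ from each other, nor did DAPT and TAE226, and PP2 was below TAE226 (log2 difference of TAE226 minus PP2 0.30, adjusted p = 0.000175). U0126 did exceed TAE226 (log2 difference 0.205, adjusted p = 0.00478).

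The dimmer Cks1b probe set, 1448441_at, averaged 2558 ± 208 under DAPT, 3000 ± 216 under U0126, 2479 ± 333 under TAE226, 2036 ± 169 under PP2 and 3153 ± 349 in vehicle (SD, n = 3 each). It fell under PP2 (−0.63 on the log2 scale, adjusted p = 8.33e-05), and was −0.07 under U0126 (adjusted p = 0.658). It also fell under DAPT (−0.30, adjusted p = 0.0355) and TAE226 (−0.35, adjusted p = 0.0165). Under DAPT the value was −0.22 without vehicle replicate 1 (adjusted p = 0.155), −0.30 without vehicle replicate 2 (0.0787), −0.30 without DAPT replicate 2 (0.0764) and −0.24 without DAPT replicate 3 (0.146). Under TAE226 it was −0.27 without vehicle replicate 1 (0.0829) and −0.25 without TAE226 replicate 3 (0.0934), and −0.60 with median centring (0.00223).

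Aurka, the mitotic kinase gene, was highest under the MEK inhibitor and lowest under PP2. On 1424511_at the signals were 447, 414 and 419 under DAPT, 743, 689 and 722 under U0126, and 506, 471 and 489 under TAE226. They were 239, 307 and 283 under PP2, against 547, 623 and 590 in vehicle. The arrays of the 5 groups did not overlap: U0126 was highest, followed by vehicle, TAE226, DAPT and PP2. Aurka fell 2.13-fold under PP2 (−1.09 on the log2 scale, SE 0.09, adjusted p = 5.51e-08) and by 0.46 on the log2 scale under DAPT (adjusted p = 0.00115).

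The rise under U0126 (log2 fold change 0.29, adjusted p = 0.0195) was not called with median centring (0.21, adjusted p = 0.213), nor without vehicle replicate 1 (0.0869), U0126 replicate 1 (0.0648) or U0126 replicate 3 (0.0512). The fall under TAE226 (−0.26, adjusted p = 0.0386) was not called without vehicle replicate 2 (0.139), vehicle replicate 3 (0.0811) or any 1 of the TAE226 arrays (0.0561, 0.109 and 0.0856 for replicates 1, 2 and 3). With centring the TAE226 fall was larger (−0.52, adjusted p = 0.00277). Among neighbours in the order, TAE226 and DAPT did not differ (log2 difference 0.20, adjusted p = 0.167), and DAPT exceeded PP2 by 0.63 (adjusted p = 4.49e-05). The other Aurka probe set, 1440129_at, was dim on all 15 arrays, between 4.28 and 38.8, and was not tested.

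**Figure D2:**
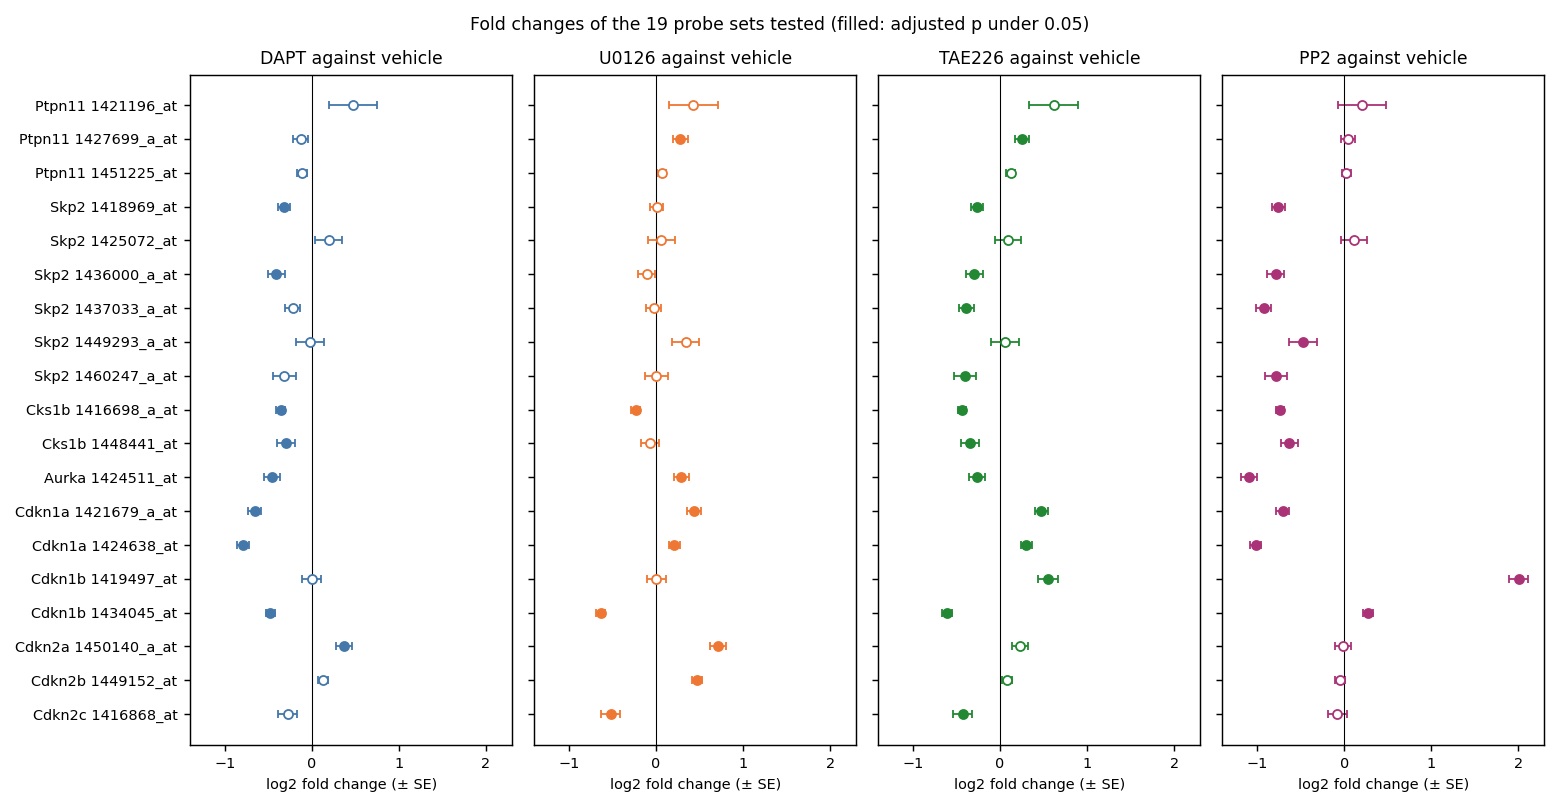
Log2 fold change of each of the 19 tested probe sets against vehicle under each inhibitor; points are the fitted values, bars are ± SE, and filled points passed an adjusted p of 0.05. Cdkn1b 1419497_at stands highest under PP2 (2.01), and Aurka 1424511_at lowest (−1.09).

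Cdkn1a, which encodes p21, split the inhibitors: it rose under U0126 and TAE226 and fell under DAPT and PP2. On its brighter probe set, 1424638_at, signals were 2837, 2757 and 3090 under DAPT, 5502, 6380 and 5533 under U0126, and 6223, 5982 and 6319 under TAE226. They were 2598, 2491 and 2348 under PP2, against 4918, 5118 and 4980 in vehicle. No inhibitor's arrays overlapped those of vehicle. Cdkn1a fell 2.02-fold under PP2 (adjusted p = 2.05e-09) and 1.73-fold under DAPT (adjusted p = 1.22e-07), and PP2 was below DAPT (log2 difference of DAPT minus PP2 0.22, adjusted p = 0.0131).

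The rises in Cdkn1a were smaller, and they depended on the scale. On 1424638_at they were 0.21 under U0126 (adjusted p = 0.0178) and 0.30 under TAE226 (adjusted p = 0.00209) in log2 units, and with centring they were 0.13 (adjusted p = 0.414) and 0.05 (adjusted p = 0.767). Without U0126 replicate 2 the U0126 rise was 0.14 (adjusted p = 0.1), and without vehicle replicate 1 its adjusted p was 0.0588. The second probe set, 1421679_a_at, read 2116, 2161 and 2044 under DAPT, 4289, 5026 and 4202 under U0126, and 4042, 5081 and 4783 under TAE226. It read 2036, 2069 and 2006 under PP2, against 3321, 3307 and 3345 in vehicle. It moved the same way in all 4 comparisons: −0.66 under DAPT (adjusted p = 8.47e-06), 0.43 under U0126 (0.000351), 0.47 under TAE226 (0.000246) and −0.71 under PP2 (1.38e-06). Of these, centring ended the call under TAE226 (0.22, adjusted p = 0.164).

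Cdkn1b, which encodes p27, the protein that Skp2 and Cks1 mark for destruction, gave the largest rise of the 10 genes, but its 2 probe sets differed. On 1419497_at the signals were 244, 247 and 251 under DAPT, 256, 242 and 247 under U0126, and 399, 301 and 398 under TAE226. They were 1007, 983 and 995 under PP2, against 261, 216 and 270 in vehicle. The PP2 arrays stood apart from all others, TAE226 lay between, and DAPT, U0126 and vehicle overlapped. The rise was 4.02-fold under PP2 (log2 fold change 2.01, SE 0.11, adjusted p = 3.93e-10) and 1.46-fold under TAE226 (0.55, adjusted p = 0.00133). With median centring the PP2 value was 1.79 (adjusted p = 2.51e-10), and the TAE226 value was 0.30 (adjusted p = 0.0515). PP2 exceeded TAE226 by 1.46 on the log2 scale (adjusted p = 2.97e-08).

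On the brighter Cdkn1b probe set, 1434045_at, 3 inhibitors were below vehicle and PP2 slightly above. Its signals were 1870, 1936 and 1818 under DAPT, 1767, 1558 and 1715 under U0126, and 1691, 1766 and 1661 under TAE226. They were 3105, 3271 and 3080 under PP2, against 2607, 2562 and 2657 in vehicle. No group overlapped vehicle. The log2 fold changes were −0.48 under DAPT (adjusted p = 8.56e-06), −0.64 under U0126 (1.99e-07), −0.61 under TAE226 (7.49e-07) and 0.27 under PP2 (0.000754), with an SE of 0.06 each. The PP2 rise on this probe set ended with median centring (0.05, adjusted p = 0.674). In the order of levels DAPT and TAE226 did not differ, nor did TAE226 and U0126, but DAPT exceeded U0126 (log2 difference 0.16, adjusted p = 0.0344).

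Within each array the log2 signal of 1419497_at minus that of 1434045_at was −2.92 ± 0.06 under DAPT, −2.76 ± 0.06 under U0126, −2.23 ± 0.28 under TAE226, −1.66 ± 0.06 under PP2 and −3.40 ± 0.15 in vehicle (SD, n = 3 each). This difference, which a scale factor per array does not alter, was larger than in vehicle by 0.47 under DAPT, 0.64 under U0126, 1.16 under TAE226 and 1.73 under PP2. In all 4 comparisons the arrays did not overlap, with a two-sided exact permutation p of 0.1, the smallest that 3 against 3 arrays allow. For Cdkn1a the same difference, 1421679_a_at minus 1424638_at, changed by 0.13, 0.22, 0.17 and 0.31 under DAPT, U0126, TAE226 and PP2 (exact permutation p = 0.3, 0.1, 0.3 and 0.1).

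The 3′ to 5′ ratio of the actin control probe sets, a measure of RNA shortening, was 1.35 ± 0.07 under DAPT, 1.28 ± 0.07 under U0126, 1.33 ± 0.08 under TAE226, 1.57 ± 0.04 under PP2 and 1.42 ± 0.06 in vehicle (SD, n = 3 each). Its mean exceeded that of vehicle under PP2 only. The same ratio for Gapdh was 0.801 ± 0.06 under DAPT, 0.791 ± 0.02 under U0126, 0.793 ± 0.04 under TAE226, 0.827 ± 0.02 under PP2 and 0.777 ± 0.0026 in vehicle (SD, n = 3 each), so its mean exceeded that of vehicle under all 4. The part of RNA shortening in these results was not tested, and which transcripts or transcript ends each Cdkn1b probe set reads was not examined here.

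**Figure D3:**
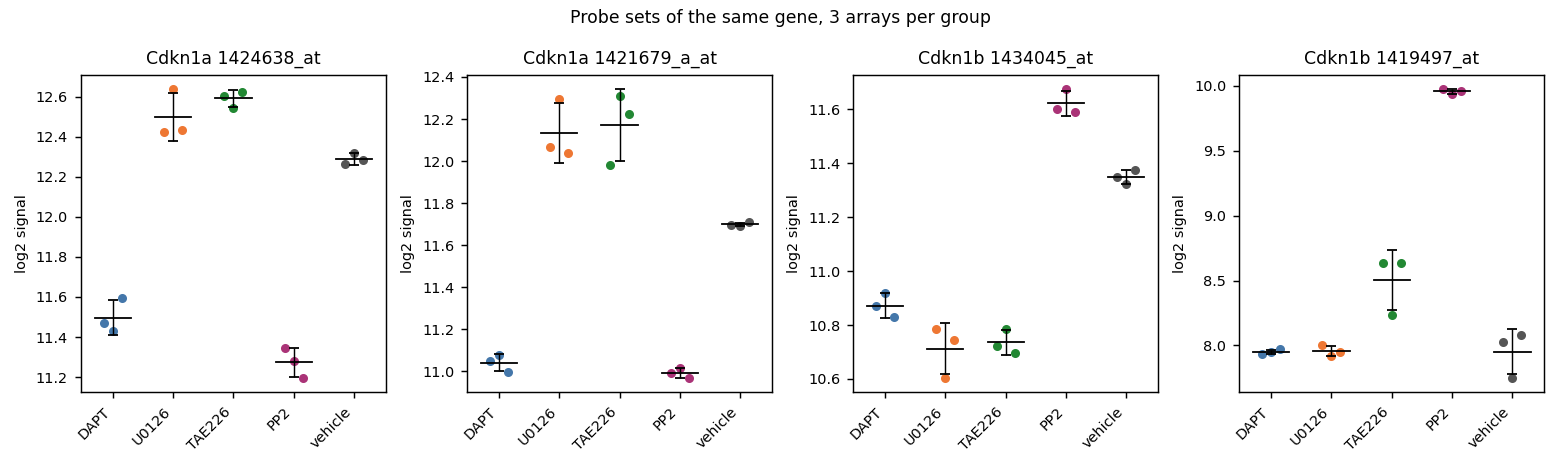
Log2 MAS5 signal per array on both probe sets of Cdkn1a and of Cdkn1b, in 5 treatment groups with vehicle at the right; points are arrays, and bars are the group mean ± SD (n = 3). In Cdkn1b the TAE226 points lie above vehicle on 1419497_at (means 8.50 and 7.95) and below it on 1434045_at (means 10.74 and 11.35), while both Cdkn1a panels have DAPT and PP2 below vehicle and U0126 and TAE226 above.

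Cdkn1c, which encodes p57, was dim on all 15 arrays, between 4.22 and 34.9, and was not tested.

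Cdkn2a and Cdkn2b, neighbours on chromosome 4 whose products p16, ARF and p15 are classic senescence effectors, were both highest under U0126. Cdkn2a on 1450140_a_at read 1486, 1706 and 1283 under DAPT, 1735, 2111 and 1808 under U0126, and 1275, 1411 and 1342 under TAE226. It read 1166, 1104 and 1138 under PP2, against 1089, 1205 and 1145 in vehicle. The DAPT, U0126 and TAE226 arrays lay above vehicle, and the PP2 arrays overlapped it. Whether this probe set reads p16 transcripts, ARF transcripts or both was not examined here. Cdkn2a rose 1.64-fold under U0126 (log2 fold change 0.71, SE 0.09, adjusted p = 1.54e-05) and by 0.37 on the log2 scale under DAPT (adjusted p = 0.00629), where centring ended the call (0.24, adjusted p = 0.245). Under TAE226 it was 0.23 (adjusted p = 0.0764, or 0.0403 with only the 6 arrays compared) and under PP2 −0.01 (95% interval −0.21 to 0.18). U0126 exceeded DAPT, the next highest group, by 0.34 (adjusted p = 0.00809).

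Cdkn2b on 1449152_at read 1857, 1961 and 1806 under DAPT, 2319, 2346 and 2468 under U0126, and 1791, 1846 and 1794 under TAE226. It read 1635, 1725 and 1620 under PP2, against 1829, 1647 and 1673 in vehicle. Only the U0126 arrays stood clear of vehicle. Cdkn2b rose 1.39-fold under U0126 (log2 fold change 0.47, SE 0.06, adjusted p = 6.59e-06), and was 0.13 under DAPT (adjusted p = 0.1), 0.08 under TAE226 (0.321) and −0.05 under PP2 (0.514). U0126 exceeded DAPT, next in order, by 0.34 (adjusted p = 0.000159), and the other neighbours did not differ. DAPT did exceed PP2, the lowest group, by 0.175 (adjusted p = 0.0245). The DAPT value passed without vehicle replicate 1 (0.17, adjusted p = 0.0436). With centring the PP2 value was −0.27 (adjusted p = 0.035).

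Cdkn2c, which encodes p18, moved opposite to its 2 relatives under U0126. On 1416868_at it read 751, 657 and 703 under DAPT, 700, 549 and 541 under U0126, and 585, 621 and 697 under TAE226. It read 778, 885 and 762 under PP2, against 856, 761 and 945 in vehicle. The DAPT, U0126 and TAE226 arrays lay below vehicle and the PP2 arrays overlapped it. Cdkn2c fell by 0.52 on the log2 scale under U0126 (SE 0.11, adjusted p = 0.00139) and by 0.43 under TAE226 (adjusted p = 0.00781), and was −0.28 under DAPT (adjusted p = 0.0677) and −0.08 under PP2 (0.587). The DAPT value also passed without vehicle replicate 2 (−0.36, adjusted p = 0.0367). With centring, DAPT (−0.41, adjusted p = 0.00417) and PP2 (−0.30, adjusted p = 0.0166) also passed. No neighbouring pair in its order differed.

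Across the 15 arrays, the log2 signals of the brightest probe sets were most alike for Skp2 and Aurka (Pearson r = 0.911), Skp2 and Cks1b (0.910) and Cdkn2a and Cdkn2b (0.894). Cks1b and Aurka had r = 0.825, Cdkn1a and Aurka 0.815, Cdkn1a and Skp2 0.765, and Ptpn11 and Skp2 0.076. The most negative values were those of Cdkn2a and Cdkn2c (−0.77) and of Cdkn1b and Cdkn2a (−0.76), and Cdkn1b and Aurka had −0.622. The arrays fall into 5 treatment groups and share their scaling, so these values describe the group means more than independent cultures. The genes most like Aurka were Cep55 (0.985), which acts in the last step of cell division, Cenpa (0.982), the centromeric histone, and Cdk1 (0.982), the mitotic kinase. The genes most like Skp2 were Adm (0.973), Ddx52 (0.967) and Ddit4 (0.967), and those most like Cks1b were Msmo1 (0.987), a sterol synthesis enzyme, Cth (0.983) and Scamp1 (0.976). Cdkn1a was nearest to Gcnt2 (0.978), Tnnt2 (0.974) and Ap1s2 (0.965), and Cdkn1b to Plpp3 (0.980), Rps6ka6 (0.954) and Cited2 (0.946). Ptpn11 was nearest to Krt18 (0.905), Cdkn2a to Tmem70 (0.956), Cdkn2b to Shroom4 (0.967) and Cdkn2c to Anapc5 (0.905).

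Partners of these genes were counted from 6 lists, each gene by its brightest probe set. Of 11336 genes tested this way, the share higher and lower than vehicle was 16.5% and 16.4% under DAPT, 18.3% and 20.2% under U0126, 14.8% and 15.1% under TAE226, and 25.7% and 26% under PP2. The median log2 fold change over all these genes lay between 0.00 and 0.02 in the 4 comparisons.

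Of 20 tested genes of the SCF-Skp2 ligase and p27 turnover, 1 rose and 6 fell under DAPT, 3 and 2 under U0126, 5 and 4 under TAE226, and 5 and 10 under PP2. With median centring the PP2 counts were 1 and 11, and those under TAE226 were 0 and 9. Under DAPT they were 0 and 5, and under U0126 1 and 0. The falls under PP2 included the Skp2 cofactor relative Cks2 (−1.04), cyclin A2 (Ccna2, −1.18), the mitotic ubiquitin ligase activator Cdc20 (−1.24) and its inhibitor Fbxo5 (−1.10). Under U0126 the ubiquitin-conjugating enzyme Cdc34 (0.64) and cyclin E1 (Ccne1, 0.49) rose, and centring kept no more than 1 of these rises. The median log2 fold change was −0.03, −0.01, 0.02 and −0.20 under DAPT, U0126, TAE226 and PP2.

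Of 13 tested partners of Aurora A, 1 rose and 7 fell under DAPT, 3 and 0 under U0126, 1 and 7 under TAE226, and 1 and 11 under PP2, with medians of −0.47, 0.04, −0.39 and −1.36. Under PP2 the falls included the kinase Plk1 (log2 fold change −1.55), the checkpoint kinase Bub1 (−1.77), the phosphatase Cdc25c (−1.66) and the spindle motor Kif11 (−1.48). Ajuba, a scaffold that activates Aurora A, rose under DAPT (1.10), U0126 (1.25), TAE226 (1.01) and PP2 (0.51). Cdc25b (0.73) and Wee1 (0.41), which act on CDK1 in opposite directions, rose under U0126. With median centring 1, 3, 1 and 1 rose and 9, 0, 10 and 12 fell.

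Of 23 tested docking proteins and partners of Shp2, 7 rose and 4 fell under DAPT, 6 and 5 under U0126, 4 and 1 under TAE226, and 12 and 3 under PP2, with medians of 0.04, 0.01, 0.10 and 0.26. The excess of rises was not kept with centring, which gave 4 and 4 under DAPT, 4 and 5 under U0126, 0 and 4 under TAE226, and 4 and 4 under PP2. Quantile normalization gave 6 and 4, 6 and 6, 2 and 2, and 11 and 3 in the same order. Under PP2 the docking protein Gab1 rose by 0.98 on the log2 scale, the receptor Met by 0.87 and the membrane adaptor Pag1 by 1.25, and the signalling inhibitor Spry1 fell by 0.89. Gab1 (0.88) and the receptor Fgfr2 (1.01) rose under U0126, where Spry2 fell (−1.02). Under DAPT the insulin receptor substrate Irs1 fell by 0.97 and Fgfr2 rose (1.15).

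Of 15 tested kinases, cyclins and pocket proteins on which CDK inhibitors act, 3 rose and 4 fell under DAPT, 6 and 1 under U0126, 2 and 3 under TAE226, and 4 and 6 under PP2, with medians of 0.13, 0.17, 0.03 and −0.31. With centring the counts were 0 and 4, 2 and 1, 1 and 6, and 2 and 8. Under PP2, Cdk1 (−1.38), cyclin D1 (Ccnd1, −1.25) and the pocket protein gene Rbl1 (−1.13) fell and the retinoblastoma gene Rb1 rose (1.09). Under U0126 the transcription factor gene E2f1 (0.65) and Cdk6 (0.41) rose. Under TAE226 cyclin D2 (Ccnd2) rose (0.87).

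Of 23 tested regulators of CDK inhibitor genes, 5 rose and 3 fell under DAPT, 5 and 8 under U0126, 5 and 4 under TAE226, and 3 and 12 under PP2, with medians of −0.06, −0.10, 0.07 and −0.23. With centring the counts were 2 and 4, 4 and 5, 2 and 7, and 1 and 13. Trp53, the gene for p53 itself, was on the list but was not among the genes tested. Klf4, an activator of Cdkn1a, fell under DAPT (−1.50) and PP2 (−1.27). The p53 relatives Trp63 (1.14) and Trp73 (1.38) rose under DAPT, and Trp63 fell under U0126 (−0.66) and TAE226 (−0.48). Myc, a repressor of several CDK inhibitor genes, fell under PP2 (−1.25). Mdm2, which restrains p53 and is also its target, rose under U0126 (0.59) and TAE226 (0.75). Bmi1, a Polycomb repressor of Cdkn2a, fell under U0126 (−0.59), and Ets1 rose there (0.89) and fell under PP2 (−1.17).

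Of 17 tested genes used as senescence markers, 1 rose and 8 fell under DAPT, 4 and 6 under U0126, 1 and 7 under TAE226, and 3 and 11 under PP2. Centring gave 1 and 9, 2 and 6, 1 and 9, and 2 and 12. The genes tested mix those that usually go up in senescence with Lmnb1, Hmgb2 and Mki67, which usually go down. Under PP2 the falls included Bhlhe40 (−2.61), the chemokine gene Cxcl1 (−1.90) and Igfbp7 (−1.78), which usually go up, as well as Mki67 (−1.44), Hmgb2 (−0.93) and Lmnb1 (−0.68). Cxcl2 was dim in all arrays under DAPT and PP2, at least 7.87-fold and at least 7.42-fold lower than in vehicle, and it fell by 2.37 on the log2 scale under U0126. Igfbp7 rose under TAE226 (1.94) and U0126 (0.84). The median log2 fold change was −0.36, −0.07, −0.19 and −0.88 under DAPT, U0126, TAE226 and PP2, and with dim genes held at their bound −0.33 under DAPT and −0.68 under PP2.

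**Figure D4:**
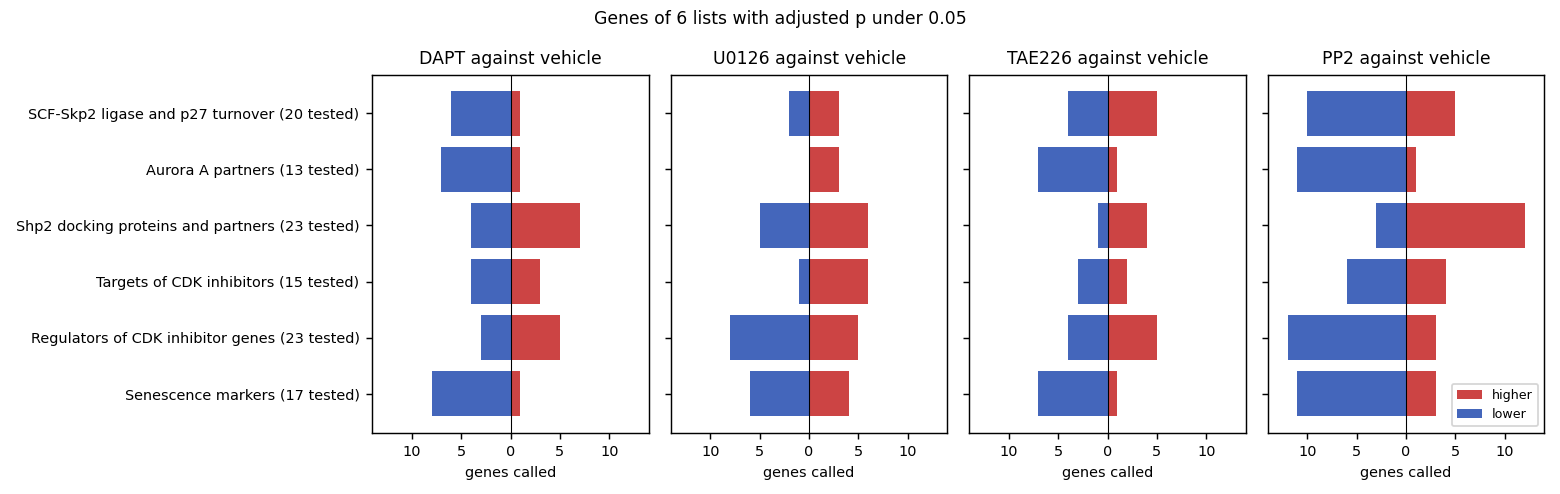
Number of genes called higher (right) and lower (left) than vehicle at an adjusted p of 0.05 in each of 6 partner lists under each inhibitor. Under PP2, 12 of 23 regulators of CDK inhibitor genes, 11 of 17 senescence markers and 11 of 13 Aurora A partners were lower, and 12 of 23 Shp2 partners were higher. Of all genes tested by their brightest probe set, 25.7% were higher and 26% lower under PP2. With median centring, 4 Shp2 partners were higher and 4 lower under PP2.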

How the data were processed

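RNA from 15 mammosphere cultures was measured on Affymetrix Mouse430_2 arrays, 1 array per culture, from 250 ng of total RNA labelled with the GeneChip 3′ IVT Express Kit, per the labels' protocols. The authors deposited linear signal intensities made with Affymetrix Expression Console and MAS5, per the submitters' processing notes, with settings not given in the sources used here. After trimming 2% at each end, each array's deposited mean was 500 to within rounding. No detection calls were used.

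Groups came from the treatment labels. Of 45101 probe sets, 64 were controls, 34945 had exactly 1 gene in the platform annotation, 932 several and 9160 none listed. Of those with 1 gene, 34741 matched the RefSeq gene table by Entrez ID. The 24641 probe sets tested each exceeded the median of their array on 3 or more of the 15 arrays. Log2 signals were fitted with limma 3.58.1 (R 4.3.3), 1 coefficient per group, with an intensity trend, no pseudocount, 10 residual and 5.85 prior degrees of freedom. Tests were two-sided, with Benjamini-Hochberg adjustment over all probe sets tested in each contrast, and were tested on simulated data. All 10 pairs of groups were fitted to order the levels. The median SE of a log2 fold change was 0.121, and the number of arrays limits the precision. Median absolute log2 differences between arrays ran from 0.119 to 0.173 inside a group and from 0.187 to 0.394 across groups, and no array copied another.

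The members, lists and tests were chosen with earlier results of these data known. A gene's brightest probe set has the highest mean log2 signal, and names ending in _x_at or _s_at were used only where no other existed. Every member probe set is reported. Up to 4 genes per list, those past the threshold that changed most, could be named, and Mki67, Hmgb2, Lmnb1 and Ajuba under PP2 are named outside that rule, after their values were seen. Where a gene was dim on all arrays of a group, its fold was bounded from below by putting the array median in place of each dim signal. The 3 genes of highest Pearson r with each member were found over the 15 arrays. Alternatives were median centring, quantile normalization, a pseudocount of 50, no filter, a filter on all 15 arrays, 1 probe set per gene, no intensity trend, the replicate number as a block, only the 6 arrays compared, and leaving out each array.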

Additional observations from a re-analysis of the deposited data

How the results depend on the processing

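Of 43 member fold changes past the threshold, 15 lost the call or changed sign under at least 1 alternative. Most of these were of size 0.47 or less on the log2 scale and stand beside their genes. The number of member probe sets called moved by more than 1.5 times only with 1 probe set per gene, which by construction tests fewer: 6 under TAE226, 5 under PP2 and 9 in the F-test. Leaving out 1 array gave 8 to 9 under DAPT, 7 to 9 under U0126, 9 to 12 under TAE226, 11 to 12 under PP2 and 16 to 17 in the F-test. Median centring turned the sign of Cdkn2b under DAPT (−0.005) and TAE226 (−0.176), Skp2 1418969_at under U0126 (−0.075), Cdkn2a under TAE226 (−0.026), Ptpn11 1451225_at under U0126 (−0.018), TAE226 (−0.135) and PP2 (−0.194), and Ptpn11 1427699_a_at under TAE226 (−0.005), the only one of these called. Leaving out vehicle replicate 3 or U0126 replicate 3 turned Skp2 1418969_at under U0126 (−0.011 and −0.049; range over single arrays −0.049 to 0.045), and leaving out vehicle replicate 2 or PP2 replicate 2 turned Cdkn2a under PP2 (0.024 and 0.008). Other calls were lost with no filter on dim probe sets (Cks1b 1448441_at under DAPT, and Aurka, Ptpn11 1427699_a_at and Skp2 1436000_a_at under TAE226; adjusted p = 0.0572, 0.0638, 0.0546 and 0.058), with no intensity trend (Cks1b 1448441_at under DAPT 0.0705, Ptpn11 1427699_a_at under TAE226 0.0594), and with only the 6 arrays compared (Cdkn1a 1424638_at under U0126 0.0506, Ptpn11 1427699_a_at 0.0731, Skp2 1436000_a_at 0.0735 and 1460247_a_at 0.0604 under TAE226, Skp2 1449293_a_at under PP2 0.0798). Under TAE226, centring took Cks1b 1416698_a_at to −0.694, Cdkn2c to −0.681, Aurka to −0.517, and Skp2 1418969_at, 1436000_a_at, 1437033_a_at and 1460247_a_at to −0.518, −0.549, −0.644 and −0.655. Calls gained are given beside Ptpn11, Cdkn2a, Cdkn2b and Cdkn2c. Over all probe sets, centring changed the split of higher and lower calls to 1508 and 3885 under DAPT (4075 and 3203 as reported), 2291 and 4026 under U0126 (4147 and 4052), 1124 and 6713 under TAE226 (4224 and 2843), and 3014 and 7709 under PP2 (6684 and 5386). Which scale is nearer to RNA per cell was not tested.

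Replicate numbers did not pair the samples: deviations of same-numbered arrays correlated between −0.24 and 0.194, and 4 of 12 inhibitor arrays correlated best with their own number. With the replicate number as a block the counts were 9, 9, 12 and 12 under DAPT, U0126, TAE226 and PP2 and 17 in the F-test, and only Aurka under TAE226 lost its call (adjusted p = 0.0545).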
